A study of Mus musculus with 10 samples.

Results

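The 38 genes described here encode the folding machinery of the endoplasmic reticulum (ER) and the signalling arms of the unfolded protein response. They were chosen by role (ER chaperones, disulfide isomerases, ER-associated degradation, translocation and the stress sensors with their transcription factors), with Xbp1 left out, and all 38 were found among the 22380 genes quantified. 37 were found under the listed symbol, and Selenos appears under its older symbol Vimp. They were measured by RNA-seq in NP-binding germinal center (GC) B cells (sorted as GL7+IgD-) from C57Bl6/N mice, collected 2 weeks after immunization with NP-OVA in Alhydrogel, an alum adjuvant. NP is a hapten and OVA its carrier protein, and GC B cells are the antigen-activated B cells that mutate and select their antibody genes. The groups were ZBTB38 WT (Zbtb38 f/f without Cre, n = 2), ZBTB38 HET (Zbtb38 f/+ x Vav-Cre, n = 2) and ZBTB38 KO (Zbtb38 f/f x Vav-Cre, n = 6). ZBTB38 is a zinc finger protein that binds methylated DNA. All 10 libraries carry at least 1 floxed allele. WT lacks the Cre that HET and KO share, so that loss of ZBTB38 and presence of Cre cannot be told apart in WT against KO. Vav-Cre is active across blood lineages, so the other blood cells of these mice carry the deletion too.

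The ER is where antibody and other secreted or membrane proteins are folded. BiP, the product of Hspa5, holds unfolded chains, and disulfide isomerases form the bonds that join antibody chains. When unfolded protein builds up, the sensors IRE1 (Ern1), PERK (Eif2ak3) and ATF6 raise chaperone, degradation and translation-control genes. Plasma cells, which secrete antibody, are known for a large ER, whereas GC B cells display their receptor and secrete little.

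The libraries held between 26612431 and 41059082 estimated counts. Zbtb38 itself was at 162 and 152 CPM (read counts scaled to library size, with TMM normalization) in WT, at 117 and 106 in HET and between 18.6 and 50.3 in KO. The GC B cell marker Bcl6 was at 169 to 294 CPM across the libraries. Libraries KO 1 and KO 6 stood apart. In KO 1 the 25% of genes with the shortest transcripts deviated from their mean over the libraries by 0.29 on the log2 scale. The 25% with the longest deviated there by -0.27. KO 3 and KO 6 leaned the same way, at 0.10 and 0.12 for the shortest and -0.11 and -0.16 for the longest. In WT, HET, KO 2 and KO 4 the shortest were at -0.12 to -0.07 and the longest at 0.05 to 0.12. KO 5 lay between, at 0.02 and -0.03. The part of this lean in the members' values was not tested. KO 6 also had the highest sum of 259 immunoglobulin genes, 33100 CPM beside 17074 to 25440 in the other libraries. KO 1 was the lowest library for 15 members and KO 6 the highest for 13. In bulk RNA, fewer cells expressing a gene and less RNA per cell cannot be told apart.

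The promoters of 6 members are shown because they hold the element through which ATF6 and XBP1 act on ER genes, and because the other 5 followed Hspa5 closely or ran opposite to it across the libraries. RefSeq promoters (GRCm38.p6, 250 bases before to 50 after the annotated start) were found for 32 of 38 members. The ER stress element (ERSE, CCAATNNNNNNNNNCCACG on either strand) was in 10 of these 32, or 31.2%, beside 39 of 32851 promoters in the table, or 0.119%. Its holders were Hspa5, Hsp90b1, Calr, Canx, Dnajc3, Creld2, Pdia6, Ero1lb, Derl3 and Syvn1. ERSE-II (ATTGGNCCACG) was in Dnajb11 and Herpud1, 6.25% of members beside 0.0365% of all promoters. In Hspa5 the ERSE begins 65 bases upstream of the start, in Pdia6 98 bases and in Creld2 126 bases upstream, there on the other strand. Hsp90b1 holds a pair, beginning 212 and 107 bases upstream. The sequences are written 5′ to 3′ on the gene's strand, and the capitals mark the ERSE, the ERSE-II or, in Herpud1 only, also an ATF4 element.
Hspa5 (chr2:34771840-34772139, plus strand): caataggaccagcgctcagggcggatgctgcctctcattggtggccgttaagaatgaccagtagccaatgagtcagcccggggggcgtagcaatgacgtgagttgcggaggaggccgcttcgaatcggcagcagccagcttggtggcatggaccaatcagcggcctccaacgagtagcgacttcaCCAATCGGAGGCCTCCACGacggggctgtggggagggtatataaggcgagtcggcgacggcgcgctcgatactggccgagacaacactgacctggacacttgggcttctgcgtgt
Hsp90b1 (chr10:86705395-86705694, minus strand): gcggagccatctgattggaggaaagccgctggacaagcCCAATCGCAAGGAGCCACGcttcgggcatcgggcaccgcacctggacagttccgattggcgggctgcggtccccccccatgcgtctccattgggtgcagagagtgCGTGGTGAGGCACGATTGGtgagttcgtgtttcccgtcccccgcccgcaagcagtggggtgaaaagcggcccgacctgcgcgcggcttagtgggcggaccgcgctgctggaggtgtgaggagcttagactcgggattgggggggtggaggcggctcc
Pdia6 (chr12:17266339-17266638, plus strand): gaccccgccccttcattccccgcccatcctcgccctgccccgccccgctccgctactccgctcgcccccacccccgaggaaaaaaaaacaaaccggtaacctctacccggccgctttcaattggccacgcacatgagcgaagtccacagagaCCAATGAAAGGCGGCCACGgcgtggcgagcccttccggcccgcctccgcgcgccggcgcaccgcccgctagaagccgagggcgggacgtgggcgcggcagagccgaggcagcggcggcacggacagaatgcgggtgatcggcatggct
Creld2 (chr15:88819396-88819695, plus strand): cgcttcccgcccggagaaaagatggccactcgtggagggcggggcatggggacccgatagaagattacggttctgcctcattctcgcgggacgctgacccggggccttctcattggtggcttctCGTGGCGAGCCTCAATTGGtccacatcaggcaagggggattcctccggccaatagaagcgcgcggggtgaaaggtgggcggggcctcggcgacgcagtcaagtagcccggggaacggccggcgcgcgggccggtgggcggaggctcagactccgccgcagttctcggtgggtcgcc
Dnajb11 (chr16:22857595-22857894, plus strand): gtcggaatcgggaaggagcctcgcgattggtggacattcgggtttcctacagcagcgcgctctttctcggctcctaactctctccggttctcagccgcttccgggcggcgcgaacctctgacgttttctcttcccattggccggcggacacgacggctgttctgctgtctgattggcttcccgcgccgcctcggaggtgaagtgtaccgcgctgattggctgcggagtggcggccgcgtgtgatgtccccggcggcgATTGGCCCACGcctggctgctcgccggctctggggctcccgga
Herpud1 (chr8:94386179-94386478, plus strand): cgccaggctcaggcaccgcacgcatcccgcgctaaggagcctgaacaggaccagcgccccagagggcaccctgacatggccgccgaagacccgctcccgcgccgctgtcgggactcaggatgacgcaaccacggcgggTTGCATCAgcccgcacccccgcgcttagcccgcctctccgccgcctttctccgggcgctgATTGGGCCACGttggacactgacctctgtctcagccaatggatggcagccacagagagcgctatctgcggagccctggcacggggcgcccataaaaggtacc

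The ATF4 element (TGATGNAA, either strand) was found in 1 member, Herpud1, 112 bases upstream, which is 3.12% of members beside 3.97% of all promoters. The UPRE core (TGACGTGG) was in no member and in 0.676% of all promoters. A match is a description of the letters and not of binding.

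By length-corrected level, these genes were abundant. The median over members of the mean TPM (counts corrected for transcript length and scaled to one total per library) was 97.6, beside 11.6 for all genes tested, and 34 of 38 members lay above the median of the genes tested. Means over 10 libraries were above 100 TPM for 19 members and below 10 TPM for 4, Dnajb9, Atf6, Edem3 and Ern1. Sec61b, the small subunit of the translocation channel, had the highest mean (445 TPM), followed by BiP (394 TPM), the chaperone GRP94 encoded by Hsp90b1 (362 TPM), the glycoprotein isomerase Pdia3 (348 TPM), the lectin chaperone Calr (347 TPM) and the degradation factor Herpud1 (344 TPM). The ranges over libraries of these 6 overlapped, 352 to 534 TPM for Sec61b and 269 to 508 TPM for Hspa5, so their order did not exceed the spread. Ern1 was lowest, at 2.19 ± 0.364 TPM in WT (SD, n = 2), 1.19 ± 0.0945 in HET (SD, n = 2) and 1.93 ± 1.82 in KO (SD, n = 6), below the other sensors Atf6 (8.74 TPM over all libraries) and Eif2ak3 (67.0 TPM).

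**Figure D1:**
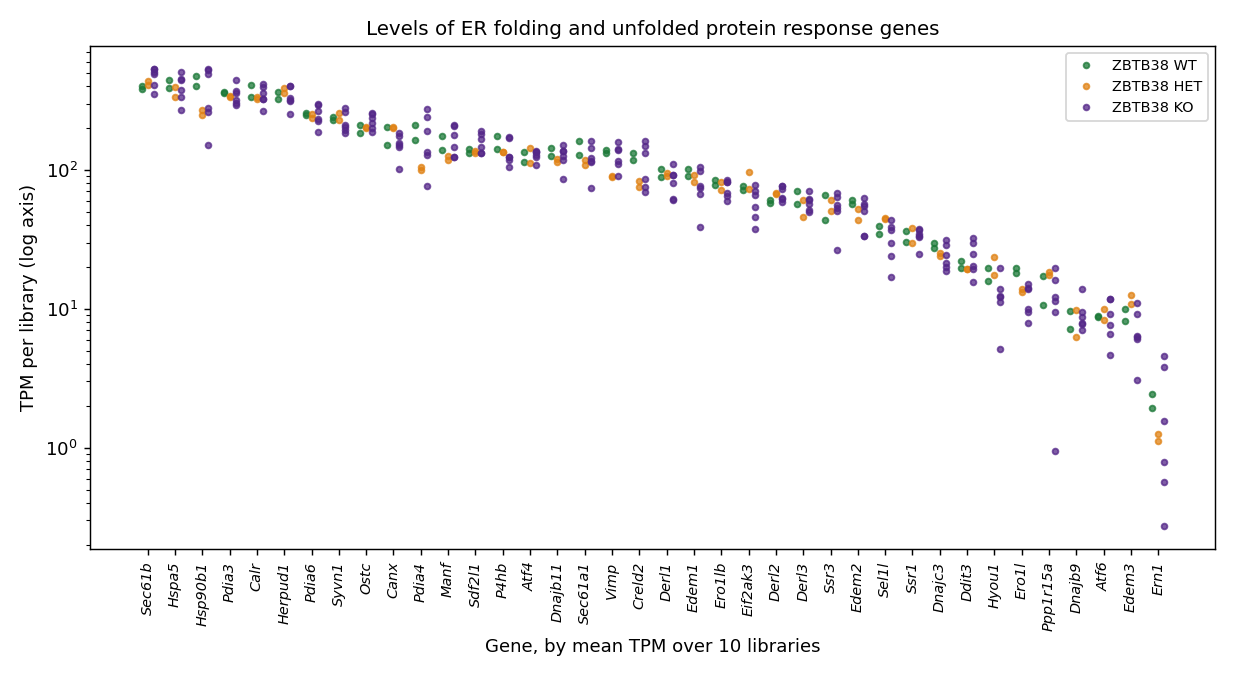
TPM of each of the 38 genes on a log axis, ordered by mean over 10 libraries, with 1 point per library (green ZBTB38 WT, orange HET, purple KO). Levels run from 445 TPM on average for Sec61b to 1.83 TPM for Ern1, and in most genes the KO points span those of the controls.

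Whether loss of ZBTB38 shifts this machinery was read first from WT against KO. All 38 members were tested, and none passed an adjusted p of 0.1 (edgeR's quasi-likelihood test), beside 1 of 14203 genes, or 0.00704%, Zbtb38 itself. The smallest adjusted p of a member was 0.999. DESeq2 also called 0 members (smallest adjusted p = 0.839), beside 10 of 17391 genes, and so did limma, beside 0 genes on log2(TPM + 1) and 3 on log2(TPM + 0.1). At an unadjusted p under 0.05 there was 1 member, Derl2, beside 2.19% of all genes tested. Derl2 was also the only member whose WT and KO libraries did not overlap in CPM, beside 6.58% of all genes. By sign, 21 members had a positive log2 fold change (higher in KO) and 17 a negative one. Their median was 0.03 and that of all genes was 0.01.

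WT plus HET against KO, which pools the controls, gave 0 members at an adjusted p of 0.1, beside 0.00749% of 13347 genes, again Zbtb38. DESeq2 also called 0 members, beside 25 of 17488 genes, and limma called 0 genes in all. Sdf2l1 and Eif2ak3 had an unadjusted p under 0.05, 2 of 38 members beside 6.3% of all genes tested, and no member's groups were free of overlap, beside 1.51% of all genes. The members' median log2 fold change was 0.07 and that of all genes 0.02, with 24 members positive. Without KO 6 or without HET 2, 0 members were under 0.05, beside 5.85% and 3.28% of all genes, and the log2 fold changes were then 0.27 and 0.36 for Sdf2l1 and -0.32 and -0.26 for Eif2ak3.

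HET against KO compares the groups that share Vav-Cre. No member was called, beside 0.00697% of 14354 genes, which is Hnrnpll alone. Vimp, Eif2ak3, Edem3 and Pdia4 had an unadjusted p under 0.05, 4 of 38 members beside 10.2% of all genes. HET and KO libraries did not overlap for 6 members, beside 13.9% of all genes: Dnajb9 and Vimp were higher in KO, and Canx, Edem3, Sel1l and Eif2ak3 were lower. The members' median was 0.11 beside 0.07 for all genes. By DESeq2, 1 member was called, Vimp, with a log2 fold change of 0.61 (SE 0.21, adjusted p = 0.0967), beside 2.89% of all genes. Markers of other cells were also higher in KO than in HET here at an unadjusted p under 0.05. These were 4 of 16 plasma cell, 6 of 10 naive B cell and 7 of 12 T cell markers. To them came 6 of 12 myeloid and 3 of 6 erythroid markers. In these lists none was lower at that threshold. Sums of the lists, in that order, were 2497 to 2646, 1119 to 1186, 198 to 203, 211 to 221 and 35.5 to 38.8 CPM in HET. In KO they were 2605 to 3513, 1117 to 2043, 198 to 295, 177 to 949 and 56.1 to 96.5 CPM. The part of these in the members' values was not tested.

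In WT against HET, where a positive log2 fold change is higher in HET, 0 members were called with all 10 libraries in the fit, beside 0.00697% of genes (Hnrnpll). DESeq2 also called 0 members, beside 162 of 17488 genes, and so did limma, beside 1 gene on log2(TPM + 1) and 5 on log2(TPM + 0.1). Vimp alone had an unadjusted p under 0.05, beside 6.42% of all genes. Fitted on only these 4 libraries, 4 members were called, all lower in HET: Hsp90b1 (log2 fold change -0.75, SE 0.107, adjusted p = 0.0327), Pdia4 (-0.87, SE 0.141, adjusted p = 0.0436), Creld2 (-0.64, SE 0.139, adjusted p = 0.0753) and Vimp (-0.58, SE 0.128, adjusted p = 0.0809), beside 3.96% of all genes. In this smaller fit the spread comes from 2 libraries in each group, whereas the same genes varied more widely among the KO libraries. HET also had lower sums than WT for 12 T cell markers (198 to 203 CPM against 316 to 326) and for 12 myeloid markers (211 to 221 CPM against 609 to 755). Sums of 16 plasma cell markers (2497 to 2646 CPM against 2772 to 3024) were lower too. So were those of 10 naive B cell (1119 to 1186 CPM against 1464 to 1608) and 6 erythroid markers. Immunoglobulin sums were 17074 and 17604 CPM in HET against 25440 and 24154 in WT. Germinal center B cell markers and cell handling and heat shock markers had higher sums in HET. The part of these in the result was not tested.

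**Figure D2:**
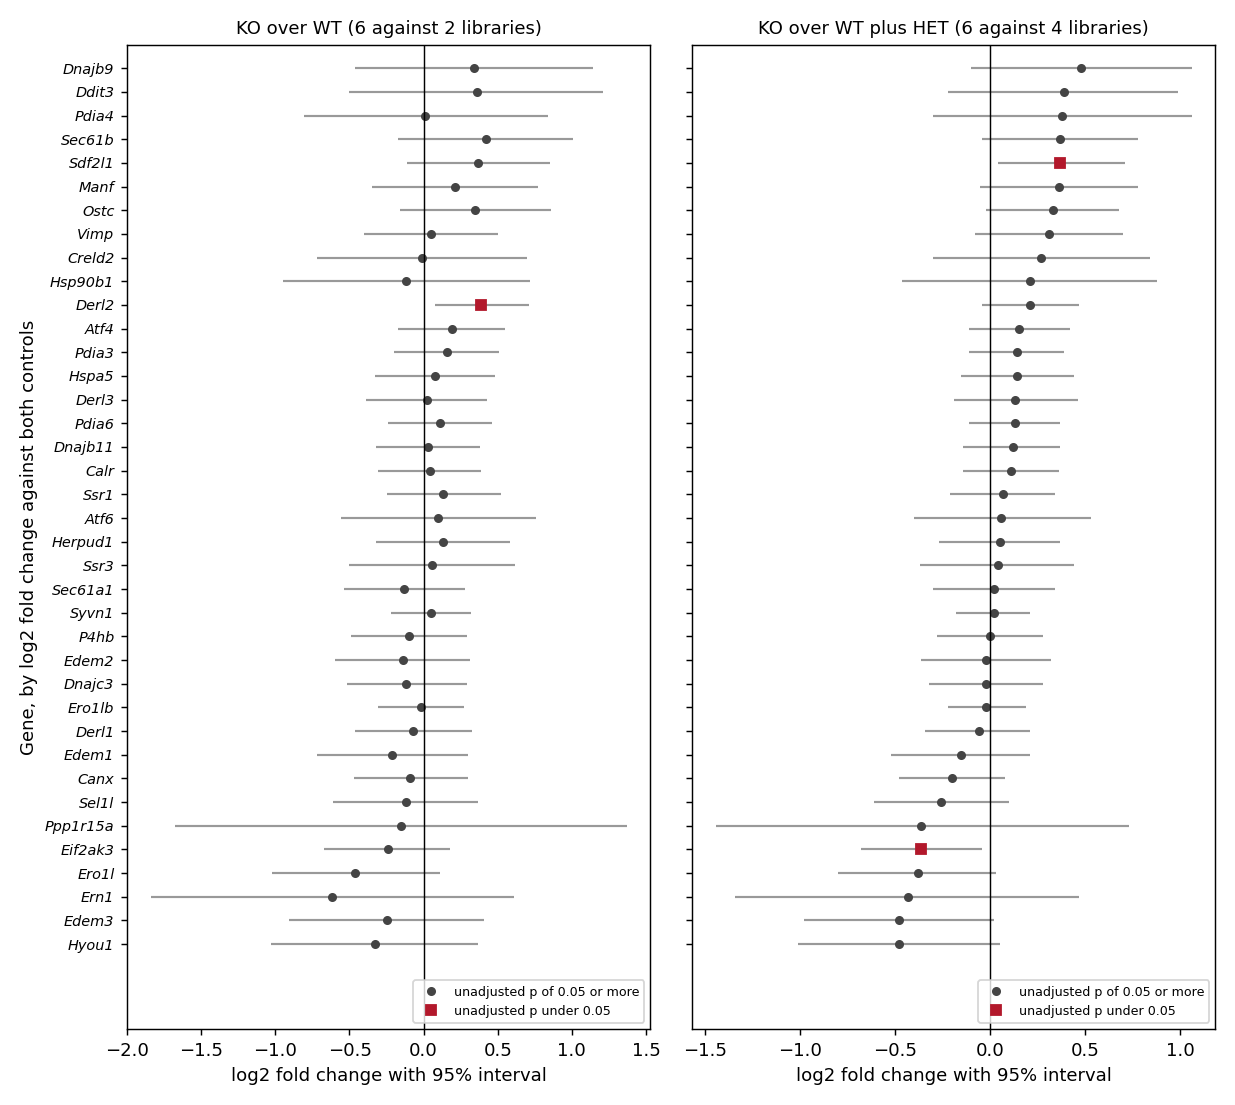
log2 fold changes with 95% intervals for the 38 genes, KO over WT on the left and KO over WT plus HET on the right, ordered by the right panel (positive is higher in KO). Red squares mark an unadjusted p under 0.05, which are Derl2 on the left (0.39) and Sdf2l1 (0.37) and Eif2ak3 (-0.36) on the right, and no gene passed the adjusted threshold.

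Among the chaperones and co-chaperones, 11 members, the medians were 0.03 for WT against KO and 0.14 against the pooled controls, with no member called in either. Hspa5 was at 765 and 662 CPM in WT, at 608 and 695 CPM in HET, and in KO from 609 CPM over a median of 746 to 918 CPM. The controls lay within the KO range except for HET 1, which was level with the lowest KO library. The log2 fold change of KO over WT was 0.08 (SE 0.183, 95% interval -0.33 to 0.48), and over both controls 0.14 (SE 0.136, 95% interval -0.15 to 0.44).

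Hsp90b1 encodes GRP94, the ER member of the HSP90 family. It was at 898 and 750 CPM in WT, at 481 and 507 CPM in HET, and in KO from 371 over a median of 772 to 1176 CPM, a 3.17-fold range within a single genotype. Its log2 fold change was -0.12 against WT (SE 0.379, 95% interval -0.95 to 0.72) and 0.21 against both controls (SE 0.308, 95% interval -0.46 to 0.88). The sign against WT turned to 0.02 without WT 1 or without KO 1. With intervals this wide, changes of that size could not be detected for this gene.

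Sdf2l1, a partner of BiP and its co-chaperones, was at 90.9 and 82.2 CPM in WT, at 87.9 and 84.4 CPM in HET, and in KO from 81.0 over a median of 115 to 147 CPM. The 4 control libraries sat close together, and the KO libraries reached from just below them to well above. Its log2 fold change over both controls was 0.37 (SE 0.153, 95% interval 0.04 to 0.71, edgeR adjusted p = 0.744), and over WT alone also 0.37 (SE 0.218, edgeR adjusted p = 0.999).

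Dnajb9 encodes a BiP co-chaperone that restrains IRE1. It was at 14.0 and 11.5 CPM in WT, at 10.6 and 10.2 CPM in HET, and in KO from 11 over a median of 14.4 to 26.7 CPM. KO 6 was its highest library and both HET libraries lay below every KO library. The log2 fold change over both controls was 0.48 (SE 0.267, 95% interval -0.10 to 1.06). It was 0.27 without KO 6, 0.16 without both KO 1 and KO 6, 0.28 on length-scaled counts and 0.11 on log2(TPM + 1).

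The other chaperones and co-chaperones were Calr, Canx, Dnajb11, Dnajc3, Hyou1, Manf and Creld2. Hyou1, a large HSP70-type chaperone that acts on BiP, had, together with Edem3, the most negative value against both controls (-0.48), with 54.4 ± 11.6 CPM in controls (SD, n = 4) and 39.0 ± 13.5 in KO (SD, n = 6). Its lowest library was KO 1 at 20.5 CPM. Manf and Creld2, small secreted or luminal proteins known to rise with ER stress, were at 84.1 ± 15 and 84.6 ± 22.2 CPM in controls (SD, n = 4) and at 108 ± 27.8 and 102 ± 37.7 CPM in KO (SD, n = 6).

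Of the 6 disulfide isomerases and oxidases, none was called, with medians of -0.00 for WT against KO and 0.06 against the pooled controls. Pdia4, an isomerase, was at 337 and 255 CPM in WT, at 160 and 166 CPM in HET, and in KO from 158 over a median of 280 to 513 CPM. HET was at the low end, WT in the middle, and KO covered both. Its log2 fold change over HET was 0.87 (SE 0.373, 95% interval 0.06 to 1.69, edgeR adjusted p = 0.465) and over WT 0.01 (SE 0.373, 95% interval -0.81 to 0.84). Over HET it was 0.12 with the replicate number as a block. That block leaves out in effect KO 3 to KO 6 (238 to 513 CPM), whose numbers no HET library shares. The 0.12 thus rests on KO 1 and KO 2 (158 and 197 CPM). The oxidase Ero1l was at 37.8 ± 7.16 CPM in controls (SD, n = 4) and 28.9 ± 6.76 in KO (SD, n = 6). Its relative Ero1lb, which serves secretory cells, differed little, at 204 ± 7.72 and 201 ± 19.4 CPM. Pdia3, Pdia6 and P4hb each varied at most 1.54-fold among the KO libraries.

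ER-associated degradation sends misfolded chains out to the proteasome. Its 10 members had medians of -0.02 and -0.00 in WT against KO and in the pooled comparison. Derl2, a channel component, was at 53.4 and 49.2 CPM in WT, at 68.7 and 60.9 CPM in HET, and in KO from 62.4 over a median of 66.7 to 74.3 CPM. In CPM, WT lay below every other library. In TPM, KO 1 (58.3) lay between WT 1 and WT 2 (57.4 and 60.9). The log2 fold change of KO over WT was 0.39 (SE 0.143, 95% interval 0.08 to 0.71, edgeR adjusted p = 0.999) and that of KO over HET 0.05 (SE 0.132). KO over WT was 0.33 on length-scaled counts and 0.19 on log2(TPM + 1). With WT 1 or WT 2 left out, which leaves 1 WT library assumed to vary like KO, KO over WT was 0.45 and 0.33.

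Vimp encodes a membrane selenoprotein that joins the derlins to the extraction machinery. It was at 96.8 and 87.4 CPM in WT, at 62.7 and 61.2 CPM in HET, and in KO from 76.4 over a median of 87.9 to 132 CPM. The HET libraries lay below all other libraries. KO over HET gave a log2 fold change of 0.62 (SE 0.200, 95% interval 0.18 to 1.06, edgeR adjusted p = 0.370), HET over WT -0.57 (SE 0.237, edgeR adjusted p = 0.758), and KO over WT 0.05 (SE 0.205, 95% interval -0.40 to 0.50).

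Edem3, a mannosidase-like protein that marks glycoproteins for disposal, was at 40.1 and 32.4 CPM in WT, at 52.9 and 45.1 CPM in HET, and in KO from 17.2 over a median of 28.9 to 44.9 CPM. KO 1 was lowest and the HET libraries were highest. The log2 fold change of KO over HET was -0.69 (SE 0.277, 95% interval -1.29 to -0.08, edgeR adjusted p = 0.443), and over WT -0.25 (SE 0.298).

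Herpud1 organises the ligase complex formed by Syvn1 and Sel1l. It was at 448 and 390 CPM in WT, at 489 and 446 CPM in HET, and in KO from 372 over a median of 428 to 650 CPM. KO 1 was highest and KO 6 lowest, the reverse of Hsp90b1. Its log2 fold change was 0.13 over WT (SE 0.204, 95% interval -0.32 to 0.58) and 0.05 over both controls (SE 0.148, 95% interval -0.27 to 0.37), and -0.08 over both controls without KO 1. The ligase Syvn1 was the steadiest after Derl2 among KO libraries, with a 1.26-fold range from 462 to 581 CPM.

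The translocation and glycosylation members Sec61a1, Sec61b, Ssr1, Ssr3 and Ostc had medians of 0.13 and 0.07, and all 5 were positive against the pooled controls without any being called. Sec61b and Ostc were highest in KO 1 (169 and 204 CPM), and Ssr3, a translocon partner, was lowest there at 67.7 CPM. Effective transcript lengths are 332, 834 and 2688 bases for these 3. Members of 4425 bases or more deviated in KO 1 by -1.07 to -0.01 on the log2 scale. Those of 1088 bases or fewer deviated by -0.06 to 0.68. Members in between ran from -1.03 (Hyou1) to 0.54 (Herpud1). Not every member followed its length: Creld2 (1133 bases) was at -0.26 and Dnajc3 (4908 bases) at -0.01. The part of length in these values was not tested.

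The last 6 members are the sensors and the PERK arm. PERK, from Eif2ak3, slows translation by phosphorylating eIF2. It was at 227 and 202 CPM in WT, at 224 and 279 CPM in HET, and in KO from 134 over a median of 184 to 220 CPM. The log2 fold change was -0.36 over both controls (SE 0.149, 95% interval -0.68 to -0.04, edgeR adjusted p = 0.744) and -0.47 over HET (SE 0.184, 95% interval -0.88 to -0.07, edgeR adjusted p = 0.434). KO 1 was the lowest library for Eif2ak3, as for the sensors Ern1 and Atf6 (1.75 and 31.1 CPM).

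Atf4, the transcription factor translated when eIF2 is phosphorylated, was at 147 and 121 CPM in WT, at 125 and 157 CPM in HET, and in KO from 134 over a median of 146 to 190 CPM. The log2 fold change over WT was 0.19 (SE 0.161, 95% interval -0.17 to 0.55), and KO 1 was the highest library. Ddit3 encodes CHOP, a factor tied to death under lasting stress, and was at 10.4 and 9.09 CPM in WT, 9.40 and 9.30 CPM in HET, and in KO from 7.78 over a median of 10.9 to 18.4 CPM. Its 2 highest libraries were KO 6 and KO 1, and the log2 fold change over WT of 0.36 (SE 0.387, 95% interval -0.50 to 1.21) was -0.02 without both.

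Ppp1r15a encodes GADD34, which restores translation by bringing a phosphatase to eIF2. It was at 16.9 and 26.8 CPM in WT, at 29.4 and 27.7 CPM in HET, and in KO from 1.74 over a median of 22.4 to 30.7 CPM. KO 6 alone was near 0, and the next lowest KO library, KO 5, was at 16.0 CPM. Its log2 fold change of -0.15 over WT (SE 0.689, 95% interval -1.68 to 1.37) became 0.09 without KO 6. With an SD of 1.31 on the log2 scale among the 6 KO libraries it was the most variable member, ahead of Hsp90b1 (0.66), Ern1 (0.65) and Pdia4 (0.62). The median SD over members was 0.29, beside 0.33 over all genes tested.

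**Figure D3:**
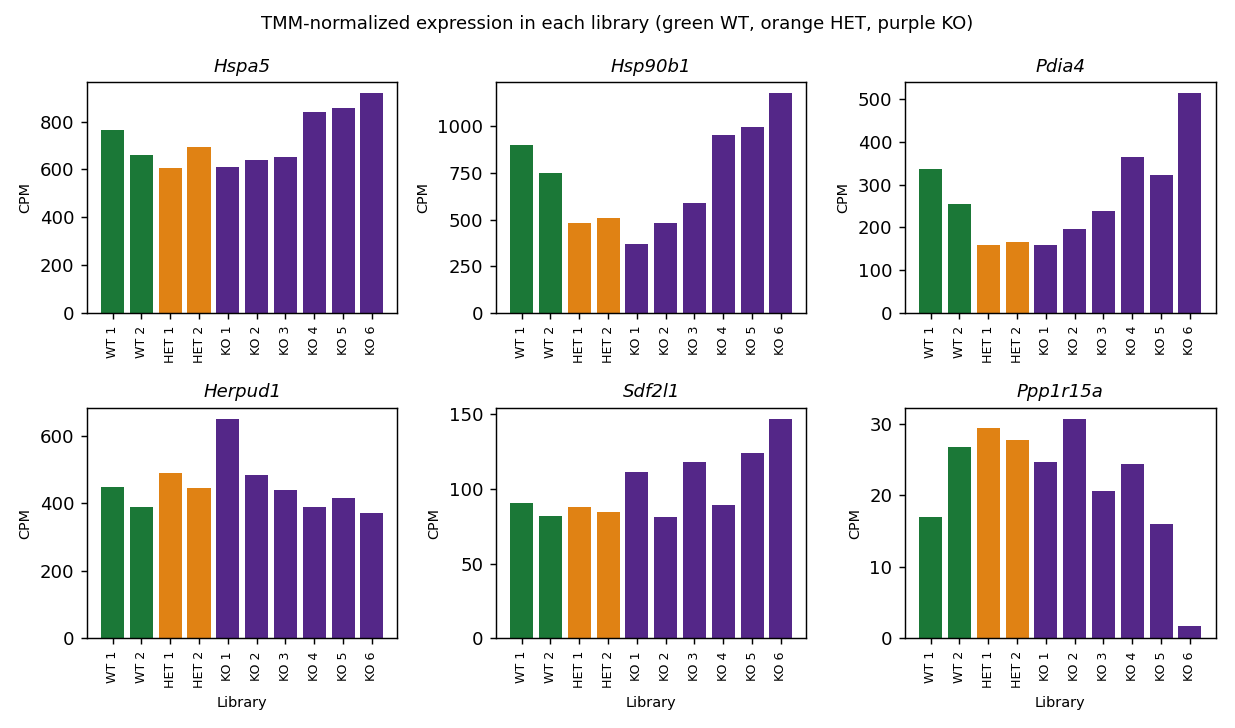
TMM-normalized CPM in each of the 10 libraries for 6 of the genes, 1 bar per library (green WT, orange HET, purple KO), with every axis starting at 0. Hspa5, Hsp90b1 and Pdia4 are high in KO 4, KO 5 and KO 6, Hsp90b1 and Pdia4 are also low in both HET libraries, Herpud1 is highest in KO 1, and Ppp1r15a falls to 1.74 CPM in KO 6.

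The members were then compared with Hspa5 across the 10 libraries, regardless of genotype, by Pearson's r and Spearman's rho of log2(CPM + 1) with permutation p-values. Of the 37 other members 30 had a positive r. The median r was 0.36, beside -0.03 for all genes tested, and 0.45 beside -0.05 within the 6 KO libraries. At an unadjusted permutation p under 0.05 there were 14 members, beside 10.8% of 14353 genes in either sign. Of these, 12 were positive, beside 5.89% of all genes. None passed an adjusted p of 0.1 over all genes tested, nor did any other gene, so that each r is given as unadjusted evidence from 10 libraries.

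The members nearest to Hspa5 were chaperones and isomerases. For Hsp90b1 r was 0.92 (permutation p = 0.0002, adjusted p = 0.171) and rho 0.93 (permutation p = 0.00038, adjusted p = 0.408). It was 0.86 without KO 5 and KO 6, the libraries farthest from the median of Hspa5, and 0.98 within the 6 KO libraries. For Pdia6 r was 0.92 (permutation p = 0.00016, adjusted p = 0.171), rho 0.92 (permutation p = 0.00052, adjusted p = 0.408) and r without those libraries 0.84. Dnajb11, a BiP co-chaperone, and Pdia4 followed with r of 0.90 each, then Creld2 with 0.87. Calr, Atf6, Manf, Vimp, Sec61a1, P4hb and Edem1 had r from 0.65 to 0.83. Of these 12, r without KO 5 and KO 6 was lowest for Vimp (0.48) and Manf (0.51).

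Herpud1 and Ppp1r15a ran the other way. For Herpud1 r was -0.70 (permutation p = 0.0163, adjusted p = 0.359), rho -0.82 (permutation p = 0.00601, adjusted p = 0.441) and r without KO 5 and KO 6 -0.63. For Ppp1r15a r was -0.71 (permutation p = 0.00373, adjusted p = 0.267), rho -0.77 (permutation p = 0.0132, adjusted p = 0.482) and r without KO 5 and KO 6 -0.47. The other 23 members had r from -0.37 to 0.63, each with a permutation p of r above 0.05. Ern1 (r = 0.63) had rho of 0.71 (permutation p = 0.0263, adjusted p = 0.545), and within the 6 KO libraries r was 0.98 for Ern1 and 0.92 for Canx. Atf4 (r = -0.06), Ddit3 (0.15) and Eif2ak3 (0.07) were near 0 over the 10 libraries. The positive r of Sdf2l1 (0.51) and Pdia3 (0.63) rested on KO 5 and KO 6, without which it was -0.23 and -0.05.

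By promoter, the 11 other members with an ERSE or ERSE-II had r with Hspa5 from -0.70 to 0.92 and a median of 0.42. The 20 with neither had r from -0.71 to 0.90 and a median of 0.28. Dnajb11 and Herpud1, the pair with an ERSE-II shown above, stood at opposite ends (0.90 and -0.70), and Syvn1, with an ERSE, was at -0.35.

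Among plasma cell markers, Sdc1 (CD138, by which plasma cells are sorted, chosen after its values were seen) was at 15.1 and 16.0 CPM in WT, at 4.97 and 1.23 CPM in HET, and in KO at 5.03, 8.04, 11.7, 25.1, 16.2 and 29.0 CPM in KO 1 to KO 6. These are the libraries in which Hsp90b1 was high (KO 4, KO 5 and KO 6 and both WT) and low (both HET, KO 1 and KO 2). Over the whole list of 16 plasma cell markers the sums were 2772 to 3024 CPM in WT, 2497 to 2646 CPM in HET and 2605 to 3513 CPM in KO, where KO 1, the lowest library for Hsp90b1, had the highest sum. Jchain, Mzb1, Eaf2 and Slamf7 did not share the pattern of Sdc1: in KO 1 they were at 1392, 679, 276 and 311 CPM, each its highest value. Of the list, 12 were above 1 CPM in every library, none was at 0 throughout, and Tnfrsf17 and Ccr10 were at 0 in 1 HET library each. Immunoglobulin sums were 24154 and 25440 CPM in WT, 17074 and 17604 CPM in HET and 18126 to 33100 CPM in KO. The part of these in the members' levels was not tested.

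**Figure D4:**
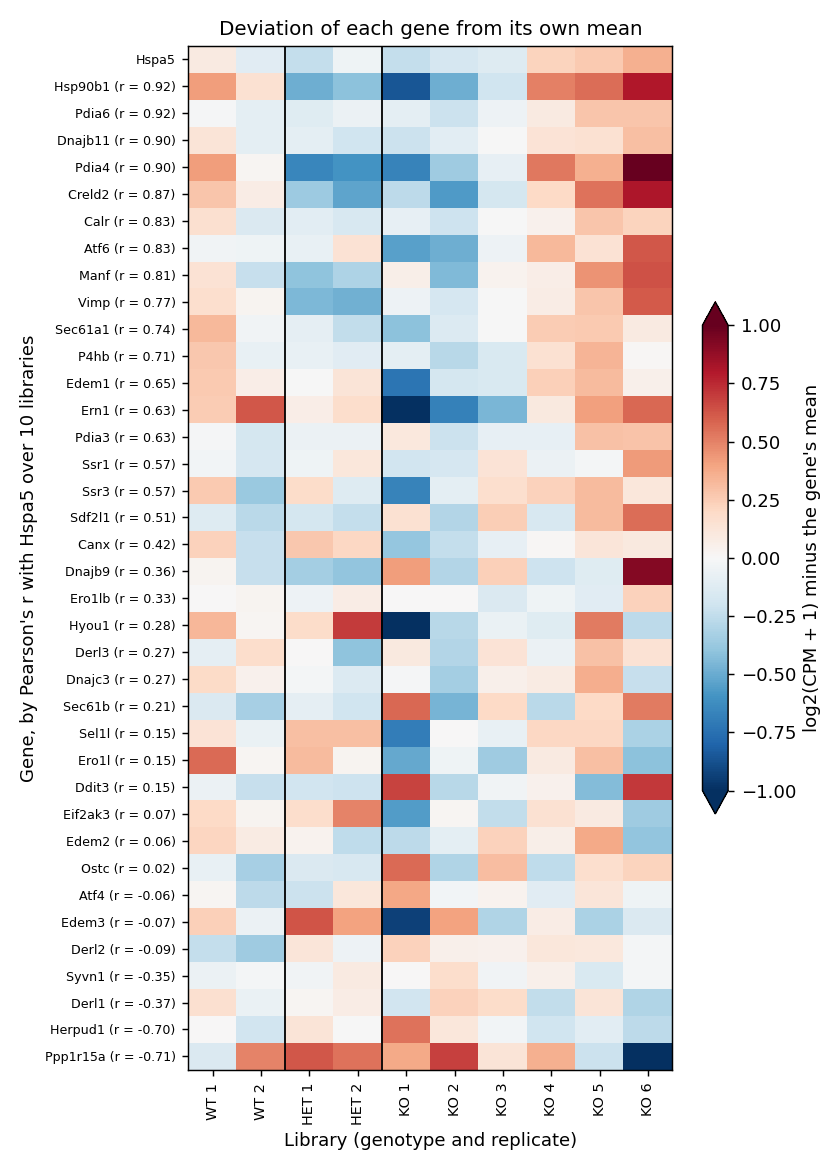
Deviation of each gene from its own mean over 10 libraries, log2(CPM + 1), with libraries in columns (lines part WT, HET and KO) and genes in rows ordered by Pearson's r with Hspa5, printed beside each name. Genes in the upper rows are mostly red in KO 4, KO 5 and KO 6 and mostly blue in the HET libraries, KO 1 and KO 2, and Herpud1 and Ppp1r15a at the bottom show the opposite in KO 6.

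Other genes of the pathway, in 5 wider lists by role, gave no calls in these comparisons. In translocation and N-glycosylation, 25 of 30 genes had a positive log2 fold change over WT (median 0.13), beside 7354 of 14203 genes tested. Over both controls 26 of 30 were positive (median 0.21), beside 7051 of 13347. Against both controls 5 had an unadjusted p under 0.05, all higher in KO. Of all 13347 genes, 301 were higher in KO at that threshold, and 6.3% passed it in either direction. Among them were Sec11c, a signal peptidase subunit that is also on the plasma cell marker list (153 ± 24.3 CPM in controls and 213 ± 42.1 in KO, log2 fold change 0.48, SE 0.154, edgeR adjusted p = 0.744), and Srp19 of the signal recognition particle (0.32, SE 0.131). Magt1, an oxidoreductase of the glycosylation complex, had the smallest p of that list against WT (0.38, SE 0.191). The genes set beside that list were not matched to it by transcript length. The shortest 25% of transcripts deviated by 0.29, 0.10 and 0.12 in KO 1, KO 3 and KO 6. They were at -0.10, -0.09 and 0.02 in KO 2, KO 4 and KO 5, and at -0.12 to -0.07 in the controls. The part of length in the counts of that list was not tested.

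In folding and quality control the median was 0.07 in both comparisons, with 27 and 26 of 29 genes tested, and Cnpy2 was at 33.2 ± 5.00 CPM in controls and 46.5 ± 12.3 in KO (log2 fold change 0.49, SE 0.197). Clgn, a relative of calnexin, was at 0 in both WT libraries and at 0.846 ± 1.2 CPM in KO. For the wider degradation list the medians were -0.02 and -0.04 (25 genes), where Ube2j1, the ubiquitin-conjugating enzyme of the pathway, was at 345 ± 59.8 CPM in controls and 281 ± 15.7 in KO (-0.29, SE 0.113).

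Stress sensors and regulators had medians of 0.02 and -0.06 (21 of 22 genes tested). Ppp1r15b, the constitutive partner of the eIF2 phosphatase, was at 132 ± 33.0 CPM in controls and 98.8 ± 10.3 in KO (-0.42, SE 0.151), and Mbtps1, the protease that activates ATF6, had a log2 fold change of -0.30 (SE 0.121). Against WT, Nfe2l1 and Creb3l2, both ER-bound transcription factors, had values of -0.53 (SE 0.251) and -1.08 (SE 0.583), and Mcfd2, a cargo receptor subunit in the folding list, -0.45 (SE 0.280). Targets of ATF4 and CHOP had medians of -0.05 in both comparisons (21 of 22 genes tested). Gpt2, an aminotransferase, was at 1.62 ± 1.67 CPM in WT and 6.91 ± 5.21 in KO (log2 fold change 2.10, SE 0.917). Each named gene of these lists had an edgeR adjusted p of 0.744 or 0.999.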

How the data were processed

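RNA-seq was made from 2 ZBTB38 WT, 2 HET and 6 KO samples of sorted NP-binding GC B cells. The authors prepared SMART-Seq v4 and Nextera libraries and quantified coding transcripts with Salmon 0.9.1 against Gencode vM17. They deposited estimated counts, neither normalized nor whole (39.09% to 50.12% of transcript values per library are not whole), and TPM values, which Salmon corrects for transcript length and scales to one total. The kit does not mark strand, so overlapping genes cannot be told apart. Molecules were not tagged, so counts hold PCR copies.

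Estimated counts and TPM of 64019 transcripts were summed over 22380 genes, and counts were rounded. Tests used edgeR 4.0.16 in R 4.3.3 (TMM, filterByExpr, quasi-likelihood, Benjamini-Hochberg over all genes tested, calls at 0.1). WT against KO and WT plus HET against KO were fitted on their own libraries. One fit of the 10 libraries, with genotype as the factor, served the comparisons of HET with KO and with WT. Correlations used 100000 permutations in numpy 2.4.6. SEs are the log2 fold change over the root of F. DESeq2 1.42.0 and limma 3.58.1 served as alternatives. The fits were tested on simulated data.

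The members and lists were chosen with earlier results of these data known. Values of each WT and HET library and the lowest, median and highest KO value are given for 2 sets of members. These are Hspa5, Hsp90b1, Sdf2l1, Dnajb9, Herpud1, Atf4, Ddit3 and Ppp1r15a, and members with an unadjusted p under 0.05 in any comparison. From the wider lists, the 3 genes with the smallest p in each direction were named for WT against KO and for WT plus HET against KO. Other named genes were chosen after their values were seen. Library totals were 26612431 to 41059082 estimated counts. No 2 libraries of a group agreed within sampling noise. Per the study's methods controls were littermates, but replicate numbers are not tied there to a litter or preparation day, and p-values measure the spread between these samples.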

Additional observations from a re-analysis of the deposited data

Results flagged for a closer look

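In 3 of 76 checks of a member within the 4 control or the 6 KO libraries, 1 library lay far from the rest by Dixon's criterion, where chance gives about 1 in 20 such groups (3.8 of these checks). Canx in WT 2 was at 384 CPM, with the other controls at 520 to 542. P4hb in WT 1 was at 335 CPM, with the other controls at 257 to 264. Ero1lb in KO 6 was at 237 CPM, with the other KO libraries at 183 to 203.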

How the results depend on the processing

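No member was called in any comparison under any alternative except DESeq2 in HET against KO, which called 1 (Vimp, 0.61), and the fit of only the 4 libraries in WT against HET, which called 4 (Vimp among them, -0.58). All other counts here are of members at an unadjusted p under 0.05. Whether replicate numbers pair the samples could not be decided. Correlations of same-numbered deviations ran from -0.00798 to 0.127, but only replicates 1 and 2 occur in more than 1 group. In WT and in HET, with 2 libraries each, the deviations of replicates 1 and 2 mirror each other. With the replicate block, KO 3 to KO 6 share no number with a control, so KO over control rests on KO 1 and KO 2. Counts were then 6, 7, 7 and 4 in WT against KO, WT plus HET against KO, HET against KO and WT against HET. Beside them stood 7.67%, 8.27%, 9.73% and 8.46% of all genes. The median of the members in WT against KO was -0.19 under the block. Log2 fold changes against WT and against both controls were -0.19 and -0.13 for Hspa5 and -0.96 and -0.63 for Hsp90b1. For Ppp1r15a they were 0.37 and 0.13, and Pdia4 over HET was at 0.12. Leaving out each library in turn gave 0 calls throughout, counts of 0 to 3, 0 to 6, 0 to 7 and 0 to 2 (beside 1.27% to 3.89%, 3.28% to 9.13%, 4.34% to 11.5% and 2.7% to 9.43% of all genes), and medians of -0.05 to 0.12, 0.04 to 0.13, 0.04 to 0.14 and -0.10 to 0.05. In WT plus HET against KO the count was 0 without KO 6 or HET 2 and 6 without KO 2, and in HET against KO it was 0 without HET 2 and 7 without KO 1 or KO 2. Sign turned for Hspa5 (-0.03 without WT 2, range to 0.19), Hsp90b1 (0.02 without WT 1 or KO 1, range from -0.28) and Ppp1r15a (0.22 without WT 2 and 0.09 without KO 6, range from -0.45), each over WT, and for Herpud1 over both controls (-0.01 without WT 2 and -0.08 without KO 1, range to 0.10). Without both KO 1 and KO 6, chosen after seeing the data, the counts were 1, 0, 5 and 5, beside 3.53%, 4.16%, 12.5% and 12.8% of all genes, and Ddit3 (-0.02) and Ppp1r15a (0.07) over WT and Herpud1 over both controls (-0.03) turned sign. On log2(TPM + 1) and log2(TPM + 0.1) with limma, the median of all genes in WT against KO was -0.11 and -0.16, Hspa5 was at -0.09, Herpud1 at -0.04 over WT and -0.10 over both controls, and HET against KO had 2 members, beside 7.67% and 7.91% of all genes. Length-scaled counts gave 4 in WT plus HET against KO, beside 6.27%, DESeq2 gave 2 in WT against HET, beside 7.32%, and the 4-library fit gave 6 there, beside 16.9%. Members related to Hspa5 at an unadjusted permutation p under 0.05 numbered 12 to 18 over the alternatives, beside 14 in the main setting. The share of all genes was worked out in the main setting only (10.8%). The counts under the alternatives therefore have no background beside them. The cause of these shifts was not tested.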

Other observations

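Marker and immunoglobulin sums were set against the chaperones Hspa5 and Hsp90b1 in 4 relations across the 10 libraries, chosen after the values were seen. The adjusted p-values given for them cover these 4 relations only and do not correct for that choice. With the log2 immunoglobulin sum, r was 0.66 for Hspa5 (permutation p = 0.0368, adjusted p = 0.0736; rho 0.62, permutation p = 0.0613, adjusted p = 0.15) and 0.69 for Hsp90b1 (permutation p = 0.0307, adjusted p = 0.0736; rho 0.60, permutation p = 0.0748, adjusted p = 0.15). Without HET 1 and KO 6, the libraries farthest from the median sum, r was 0.33 and 0.49, so the relation rests in part on them. Within the 6 KO libraries r was 0.66 and 0.60. With the sum of the 16 plasma cell markers, r was 0.37 for Hspa5 (permutation p = 0.291, adjusted p = 0.379; rho 0.24, permutation p = 0.514, adjusted p = 0.514) and 0.31 for Hsp90b1 (permutation p = 0.379, adjusted p = 0.379; rho 0.28, permutation p = 0.426, adjusted p = 0.514). Without HET 2 and KO 1 these were 0.70 and 0.69, and within the 6 KO libraries 0.17 and 0.13.

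Within the plasma cell list the genes did not move alike. Fkbp11, an ER isomerase of secretory cells, was at 5.07 and 5.81 CPM in WT, at 0.637 and 0.326 CPM in HET and between 2.04 and 21.2 CPM in KO, highest in KO 6. Ly6c2 was also highest in KO 6, at 61.2 CPM, and lowest in the HET libraries (2.71 and 3.73 CPM). Slamf7 ran the other way, at 197 CPM in KO 6 and at 305 and 309 CPM in HET. Xbp1, the transcription factor spliced by IRE1, was at 345 and 283 CPM in WT, at 260 and 220 CPM in HET and between 224 and 465 CPM in KO, again highest in KO 6. The spliced form was not separated here. The GC genes Mef2b and S1pr2 were lowest in KO 6 (275 and 296 CPM).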
